A study of Mus musculus with 4 samples.

Results

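The Ikaros family of zinc finger transcription factors was followed across CD4 T cells of mouse lymph nodes held under 4 cytokine conditions. Its 5 genes are Ikzf1 (Ikaros), Ikzf2 (Helios), Ikzf3 (Aiolos), Ikzf4 (Eos) and Ikzf5 (Pegasus). Members were taken as the non-control probes that the scanner files name by the older Zfpn1a symbols of these genes, each checked by its accession, which gave 10 of the 41174 probes of the array. A further 5 probes outside that naming rule lie at the Helios or Aiolos gene by RefSeq synonym or by description and are given beside the members. The 5 members are part of 19902 genes tested, each at the probe with the highest mean signal, and all 10 member probes passed the filter on dim probes.

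On each 2-colour Agilent array, Treg RNA was set against T-effector RNA, one in Cy3 and the other in Cy5. All cells received plate-bound anti-CD3 at 1 ug/ml over 4 days and IL2 at 100 units/ml over 3 days. There were 4 arrays with TGFb at 4 ng/ml and IL6 at 25 ng/ml, 3 with TGFb, 3 with IL6 and 3 with IL2 alone. The Treg RNA carried Cy5 on 2, 1, 1 and 2 of these arrays in that order. The labels name no mouse strain, age, allele or transgene, and give neither the way Treg and T-effector cells were separated nor whether the arrays of 1 condition stand for separate cultures. Each p-value is thus set against array-to-array spread, part or all of which may be technical.

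Ikaros family proteins bind DNA through N-terminal zinc fingers and pair with each other through C-terminal ones. Many of their effects on transcription run through the NuRD chromatin remodelling complex and the co-repressors Sin3 and CtBP. In T cells Ikaros and Aiolos act in lymphocyte development and differentiation, Helios is a marker of Treg cells that arise in the thymus, and Eos is a co-repressor partner of Foxp3. Pegasus is the most distant relative and is less studied in T cells.

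Across the 13 arrays, spread over 5 slides (A to E here), there were 38.9% to 69.7% of probes well above background in Treg channels and 41.7% to 67% in T-effector channels. No array on slides A and C had TGFb, and every array on slide B did. TGFb met IL2 alone only on slide D, and TGFb with IL6 met IL6 only on slide E. Foxp3, the transcription factor that defines Treg cells, was above its T-effector signal in the Treg channel in all 4 conditions (log2 ratio 2.16 ± 0.14 with TGFb and IL6, 1.95 ± 0.17 with TGFb, 2.12 ± 0.17 with IL6 and 2.39 ± 0.17 with IL2 alone, SE). Of 7 Treg markers, 6, 6, 5 and 5 were higher in Treg in that order of conditions, 0 were lower, and Cd4 was well above background in every Treg channel and in 12 of 13 for T-effector cells. Cd8a, Cd8b1, Nkg7 and Klrd1, markers of CD8 T and NK cells, were so in all 13 channels of both kinds. Detection alone thus does not set CD4 T cells apart here.

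Helios was the member with the largest difference between Treg and T-effector samples. Ikzf2 was higher in Treg with IL6 and with IL2 alone, by about the same amount, and the ratio was smaller in both conditions that held TGFb. In the Treg channel the Ikzf2 signal fell with TGFb in both comparisons. The T-effector difference was 0.58 for TGFb minus IL2 alone and 0.00 for TGFb with IL6 minus IL6, neither past the threshold. In samples of many cells, fewer Helios-expressing cells and less Ikzf2 RNA per cell cannot be told apart.

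The array carried 2 probes named for Ikzf2, both on the minus strand of chromosome 1 in the mm7 coordinates of the file headers. The brighter one, A_52_P268911, lies at chr1:69924049-69924108, and the dimmer one, A_51_P413398, at chr1:69780588-69780647. Another 3 probes carry the name A730095J18Rik, which RefSeq lists as a synonym of Ikzf2, and lie downstream on the same strand at chr1:69773109-69773168 (A_52_P413515), chr1:69774888-69774947 (A_52_P333414) and chr1:69777757-69777816 (A_52_P431483). A probe described as Helios on the opposite strand, A_52_P883898 at chr1:69788498-69788557, was well above background in 0 of 26 channels and is not described further. Exons, introns and UTRs at these positions were not determined, since no genome of that build was used here.

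At A_52_P268911 the Treg log2 signals were 7.41, 7.13, 7.57 and 7.10 on the arrays with TGFb and IL6, and 7.77, 7.50 and 8.01 with TGFb. They were 9.02, 9.68 and 8.92 with IL6, and 9.98, 9.02 and 8.41 with IL2 alone. All 7 Treg values with TGFb lay below all 6 without it. The T-effector log2 signals were 6.93, 6.76, 6.59 and 6.43 with TGFb and IL6, 7.16, 7.21 and 7.003 with TGFb, 6.92, 6.43 and 6.64 with IL6, and 6.50, 6.60 and 6.61 with IL2 alone. These T-effector values overlapped between conditions, except that the 3 with TGFb stood above all others.

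**Figure D1:**
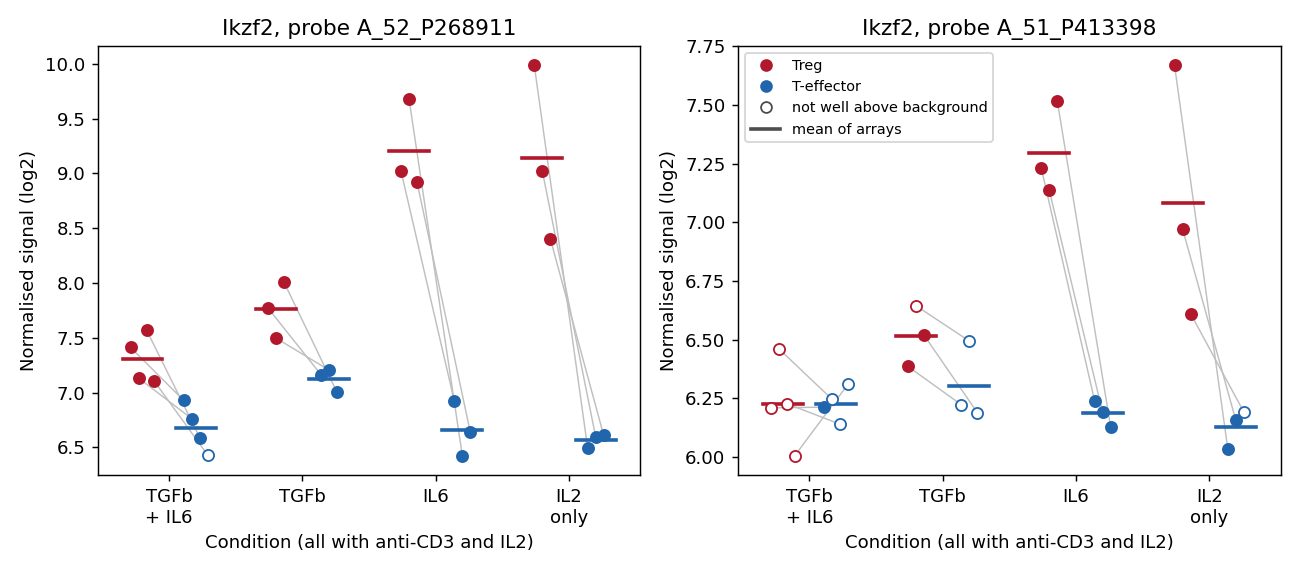
Normalised log2 signal of both Ikzf2 probes in Treg (red) and T-effector (blue) channels by condition, with 1 point per array, a grey line joining both channels of an array, a bar at the mean and open points where the channel was not well above background. At A_52_P268911 the Treg values with TGFb run from 7.10 to 8.01, below the 8.41 to 9.98 without it.

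On single arrays the log2 ratio of Treg over T-effector was 0.48, 0.37, 0.98 and 0.67 with TGFb and IL6, 0.61, 0.29 and 1.01 with TGFb, 2.10, 3.25 and 2.28 with IL6, and 3.49, 2.42 and 1.79 with IL2 alone. Ikzf2 was higher in Treg on 13 of 13 arrays, and the ratios with and without TGFb did not overlap. In limma's fit with a dye term the ratio was 2.52 ± 0.29 with IL6 (SE, n = 3, 5.74-fold, adjusted p = 0.000626) and 2.59 ± 0.29 with IL2 alone (n = 3, 6.02-fold, adjusted p = 0.000464). It was 0.63 ± 0.25 with TGFb and IL6 (n = 4, limma adjusted p = 0.168) and 0.62 ± 0.29 with TGFb (n = 3, limma adjusted p = 0.277), neither past the threshold of 0.05. With Agilent's own processed signals both of these passed it, at 1.52 with TGFb and IL6 (limma adjusted p = 0.0043) and 1.16 with TGFb (limma adjusted p = 0.0258). With those signals 3620 and 3330 of 19902 genes passed, against 1163 and 1188 in the fit above. In the fit above, 0 of the 5 members passed with TGFb and IL6, 0 with TGFb, 1 with IL6 and 2 with IL2 alone, where 5.84%, 5.97%, 5.87% and 11% of all genes passed.

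The test of the difference between conditions asked whether TGFb changed the gap between Treg and T-effector samples. The Ikzf2 ratio was lower with TGFb than with IL2 alone by a log2 difference of -1.97 ± 0.41 (3.93-fold, limma adjusted p = 0.0222), where 5.87% of genes passed, and lower with TGFb and IL6 than with IL6 by -1.89 ± 0.38 (3.72-fold, limma adjusted p = 0.0259), where 4% passed. These comparisons share no arrays, but both come from 1 fit whose dye term and spread use all 13 arrays. On slide D, the difference between the array with TGFb and that with IL2 alone was -1.41, and on slide E that between TGFb with IL6 and IL6 was -1.61, with Treg RNA in the same dye in each pair. Adding IL6 left the ratio near its level: TGFb with IL6 minus TGFb was 0.01 (95% interval -0.86 to 0.88) and IL6 minus IL2 alone was -0.07 (-1.02 to 0.88), where 0.291% and 0% of genes passed. These intervals still hold differences of close to 1 log2 unit, and come from a fit that does not pair arrays by slide. Arrays 1, 2 and 3 of TGFb with IL6 and of TGFb match in slide and dye. Between them the Ikzf2 ratio differed by -0.13, 0.08 and -0.03 on slides E, B and D. Each of the TGFb differences fell out of the threshold in 5 of 13 fits that left out 1 array. For TGFb against IL2 alone these left out IL2 array 1 (-1.32, limma adjusted p = 0.0949), IL2 array 2 (-2.02) and TGFb arrays 1, 2 and 3 (-1.94, -1.79 and -2.34). For TGFb with IL6 against IL6 these left out IL6 arrays 2 and 3 (-1.56 and -2.02) and TGFb with IL6 arrays 1, 2 and 3 (-1.81, -1.76 and -2.03). Leaving out the others kept them past the threshold.

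Within Treg channels, Ikzf2 fell by 1.40 ± 0.32 on the log2 scale with TGFb against IL2 alone (2.64-fold, limma adjusted p = 0.00687), where 7.76% of genes passed, and by 1.89 ± 0.30 with TGFb and IL6 against IL6 (3.71-fold, limma adjusted p = 0.000146), where 10.1% passed. Without IL2 array 1 the difference of TGFb against IL2 alone was -0.88, a change of over 1.5 times, and no longer passed the threshold (limma adjusted p = 0.0734). The difference of TGFb with IL6 against IL6 passed the threshold in 13 of 13 fits that left out an array, between -2.03 and -1.66. Within slides, the Treg difference was -1.01 on slide D and -1.61 on slide E. IL6 against IL2 alone gave 0.05 ± 0.32 in Treg, where 0.946% of genes passed.

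In T-effector channels, Ikzf2 with TGFb minus IL2 alone was 0.58 ± 0.32 (limma adjusted p = 0.366), with TGFb and IL6 minus IL6 it was 0.00 ± 0.30, and with IL6 minus IL2 alone it was 0.11 ± 0.32. Of all genes, 4.32%, 11.2% and 0.799% passed in these comparisons. Addition of IL6 to TGFb gave -0.45 ± 0.30 in Treg (limma adjusted p = 0.547) and -0.46 ± 0.30 in T-effector channels (limma adjusted p = 0.492), where 5.61% and 7.46% of genes passed. Arrays 1, 2 and 3 of these conditions share slide and dye. With the array number as a replicate block over these 3 pairs both passed the threshold, at -0.39 in Treg (limma adjusted p = 0.0165) and -0.36 in T-effector channels (limma adjusted p = 0.0182). Over the alternative settings, this block among them, 458 to 2361 genes passed in Treg and 594 to 3119 in T-effector channels. The paired differences were -0.36, -0.37 and -0.44 in Treg and -0.23, -0.44 and -0.41 in T-effector channels on slides E, B and D.

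Ordered by mean log2 signal at A_52_P268911, the 8 groups ran from Treg with IL6 (9.21 ± 0.41, SD, n = 3) and Treg with IL2 alone (9.14 ± 0.80, n = 3) to Treg with TGFb (7.76 ± 0.26, n = 3) and Treg with TGFb and IL6 (7.31 ± 0.23, n = 4). The T-effector groups followed, with TGFb (7.12 ± 0.11), TGFb and IL6 (6.68 ± 0.22), IL6 (6.66 ± 0.25) and IL2 alone (6.57 ± 0.06). Neighbours in this order overlapped, except Treg with IL2 alone and Treg with TGFb, and T-effector with TGFb and T-effector with TGFb and IL6.

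The second Ikzf2 probe, A_51_P413398, was close to background. It was well above it on all 3 arrays with IL6, all 3 with IL2 alone, 2 of 3 with TGFb and 0 of 4 with TGFb and IL6 for Treg, and on 6 of 13 arrays for T-effector cells. Its log2 ratio, fitted over all 28923 probes kept, was 1.08 ± 0.18 with IL6 (limma adjusted p = 0.00741) and 0.99 ± 0.18 with IL2 alone (limma adjusted p = 0.00786), both higher in Treg, where 5.11% and 9.9% of all probes passed. The T-effector channel was well above background on 3 of 3 of the IL6 arrays and 2 of 3 of the IL2 arrays. With TGFb it was so on 0 of 3 and with TGFb and IL6 on 1 of 4, so no ratio is given for these conditions. In Treg channels the difference of TGFb with IL6 minus IL6 was -1.06 ± 0.19 (measured log2 means 6.23 and 7.29, limma adjusted p = 0.000543), the lower mean being at background. The difference of TGFb minus IL2 alone was -0.60 ± 0.20 (limma adjusted p = 0.0833). Of all probes, 9.36% and 7.25% passed in these comparisons. Both Ikzf2 probes were thus higher in Treg without TGFb, but the Treg difference of TGFb against IL2 alone passed the threshold at 1 of them.

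The brightest of the A730095J18Rik probes, A_52_P413515, was well above background in all 26 channels. Its Treg log2 signals were 7.21, 7.13, 7.44 and 7.14 with TGFb and IL6, 7.89, 8.07 and 8.24 with TGFb, 10.12, 10.15 and 10.34 with IL6, and 10.39, 10.16 and 9.64 with IL2 alone. Its T-effector log2 signals ran from 6.67 to 7.49 with TGFb, IL6 included, and from 6.61 to 7.72 without it. As at the bright Ikzf2 probe, the Treg channels with and without TGFb did not overlap. Its fitted log2 ratio was 3.12 ± 0.19 with IL6 and 3.23 ± 0.19 with IL2 alone (limma adjusted p = 6.94e-06 and 9.4e-06). With TGFb it was 0.81 ± 0.19 and passed the threshold (limma adjusted p = 0.0274), where 5.97% of genes passed. This was lost in 3 of 13 fits that left out 1 array. With TGFb and IL6 it was 0.42 ± 0.16 (limma adjusted p = 0.162). In Treg channels A730095J18Rik with TGFb and IL6 against TGFb was -0.87 ± 0.20 (limma adjusted p = 0.00948), against -0.45 at Ikzf2. This Treg call at A730095J18Rik was lost without TGFb array 2 (-0.84) or without TGFb array 3 (-0.82), and when all spots entered the background model the value was -0.60.

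Its 2 dim neighbours ran the same way without TGFb. With IL6 both were well above background in the Treg channel on 3 of 3 arrays, and in the T-effector channel on 1 of 3. Their fitted log2 ratios there, set largely against T-effector signals not above background, were 1.22 ± 0.19 at A_52_P333414 (limma adjusted p = 0.00517) and 1.13 ± 0.16 at A_52_P431483 (limma adjusted p = 0.00258). With IL2 alone neither was well above background in any T-effector channel. Set against these T-effector signals, their fitted log2 ratios with IL2 alone were 1.16 ± 0.19 (limma adjusted p = 0.00449) and 1.28 ± 0.16 (limma adjusted p = 0.000885), where 9.9% of all probes passed. In Treg channels with TGFb and IL6 both were well above background on 0 of 4 arrays, at least 2.17-fold and at least 1.83-fold lower than with IL6. These probes, with the Ikzf2 ones, lie at 1 gene and are not replicates of each other.

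**Figure D2:**
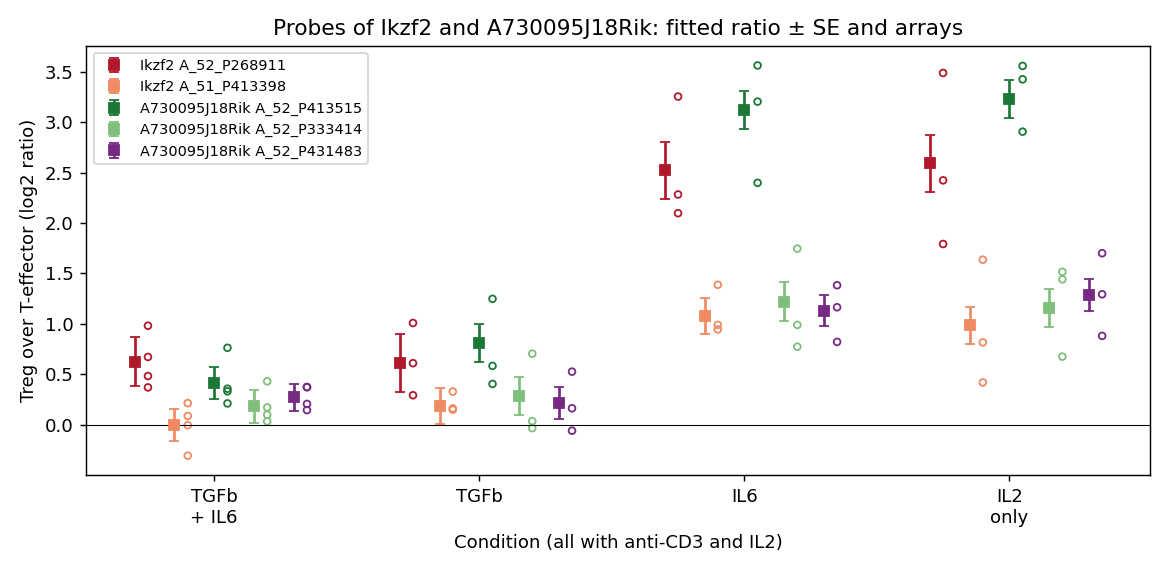
Log2 ratio of Treg over T-effector by condition for both Ikzf2 probes and the 3 A730095J18Rik probes, with the fitted value ± SE (squares) and single arrays (open circles). At the bright probes A_52_P268911 and A_52_P413515 the fitted ratios run from 2.52 to 3.23 with IL6 and with IL2 alone, against 0.42 to 0.81 with TGFb, and at the other 3 many channels were not well above background.

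Of all genes, those with signals most like Ikzf2 over the 26 channels, after removal of each dye's mean, were A730095J18Rik (r = 0.966), Itgb8 (r = 0.955), AK051975 (r = 0.945), Arhgap32 (r = 0.933) and the unnamed probe A_51_P311836 (r = 0.923). Channels of an array share a slide, and the 6 Treg channels without TGFb stand apart from the rest. Over the other 20 channels the values were 0.86, 0.82, 0.68, 0.88 and 0.81 in the same order. Itgb8, a beta chain of integrins that release active TGFb, had mean Treg log2 signals of 6.92 ± 0.15 with TGFb and IL6, 6.92 ± 0.16 with TGFb, 8.54 ± 0.69 with IL6 and 8.90 ± 0.38 with IL2 alone (SD). Its T-effector means ran from 5.93 to 6.32.

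Eos, the co-repressor partner of Foxp3, was higher in Treg with IL2 alone, at 1 of its 3 probes. The probes lie on the minus strand of chromosome 10, at chr10:128135601-128135660 (A_51_P445117, the brightest), chr10:128135292-128135351 (A_51_P353247) and, with its ends further apart, chr10:128136530-128137567 (A_52_P291857, well above background in 17 of 26 channels). At A_51_P445117 the log2 ratios on single arrays were -0.28, 0.14, -0.01 and -0.05 with TGFb and IL6, -0.11, 0.14 and 0.17 with TGFb, -0.22, 1.38 and 0.57 with IL6, and 0.97, 0.85 and 0.80 with IL2 alone. The 3 arrays with IL2 alone agree closely and lie above all arrays with TGFb, while those with IL6 spread widely.

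The fitted Ikzf4 ratio was 0.87 ± 0.22 with IL2 alone (1.82-fold, limma adjusted p = 0.0275) and 0.58 ± 0.22 with IL6 (limma adjusted p = 0.144), against -0.05 ± 0.19 with TGFb and IL6 and 0.07 ± 0.22 with TGFb. The IL2 call was lost without any 1 of the 3 IL2 arrays (0.79, 0.88 and 0.91 without arrays 1, 2 and 3, limma adjusted p = 0.154, 0.124 and 0.0671). At the other probes the ratio with IL2 alone was 0.39 ± 0.15 (A_51_P353247, limma adjusted p = 0.111) and -0.06 ± 0.08 (A_52_P291857). Without IL6 array 1 the Ikzf4 ratio with IL6 was 0.98 and passed the threshold (limma adjusted p = 0.00763), a change of over 1.5 times, and without IL6 array 2 it was 0.17. Without slide E, which leaves 1 array with IL6, it was 1.33 (limma adjusted p = 0.00154), and it turned to -0.13 under median centring and to -0.06 at probe A_52_P291857. The Ikzf4 ratio with TGFb minus that with IL2 alone was -0.80 ± 0.31 (limma adjusted p = 0.148), and with TGFb and IL6 minus IL6 it was -0.63 ± 0.28 (limma adjusted p = 0.23). The first of these passed the threshold without IL6 array 1 (-0.84) and without IL6 array 2 (-0.75), and the second without IL6 array 1 (-1.02, a change of over 1.5 times).

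Levels of Ikzf4 moved with the slide. At A_51_P445117 the Treg log2 signal lay between 9.22 and 9.45 on slide D and between 8.48 and 9.17 on slide E, against 8.51 to 8.65 on slide A, 7.51 to 7.80 on slide B and 7.80 on slide C. The T-effector signal ran from 8.60 to 9.26 on slides D and E, and from 7.002 to 7.75 on slides A, B and C. With this spread, none of the 8 comparisons between conditions within Treg or T-effector channels passed the threshold, and their standard errors were 0.50 to 0.53. The genes most like Ikzf4 over the 26 channels were Lypd2, Tlr9 and Ly6g5b (r = 0.977, 0.976 and 0.975), whose T-effector SDs within conditions ran from 0.54 to 1.06 log2 units.

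**Figure D3:**
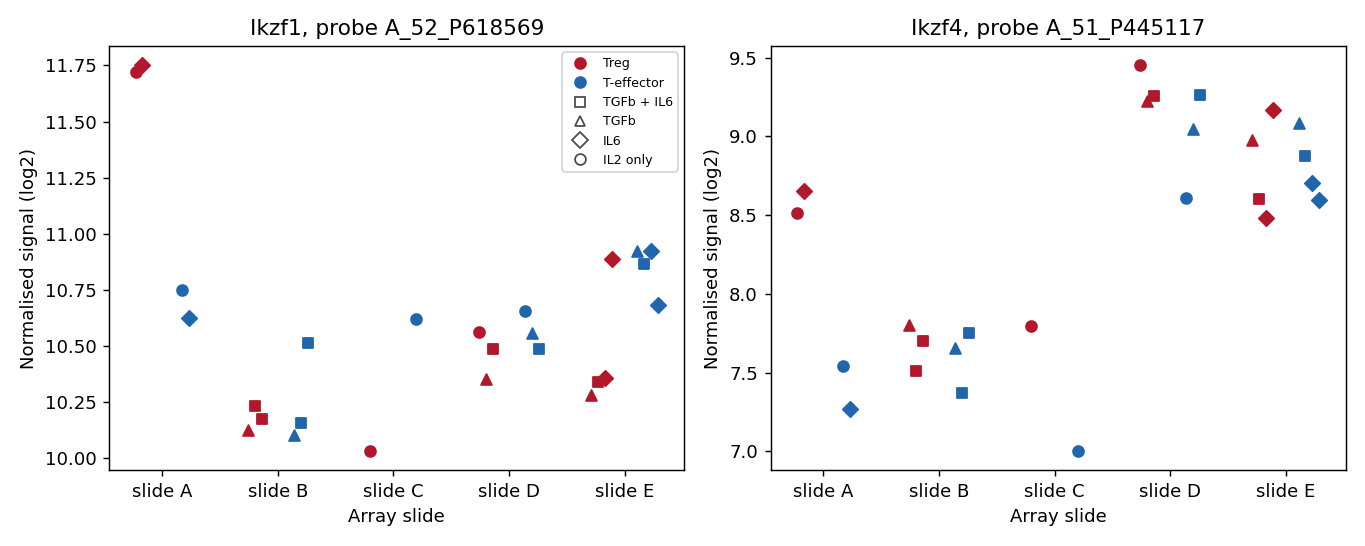
Normalised log2 signal of Ikzf1 and Ikzf4 by array slide, with Treg (red) left of T-effector (blue) and the symbol giving the condition. Treg Ikzf1 lies at 11.72 and 11.75 on slide A and at 10.89 or below elsewhere, and Ikzf4 is higher on slides D and E in T-effector channels.

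**Figure D4:**
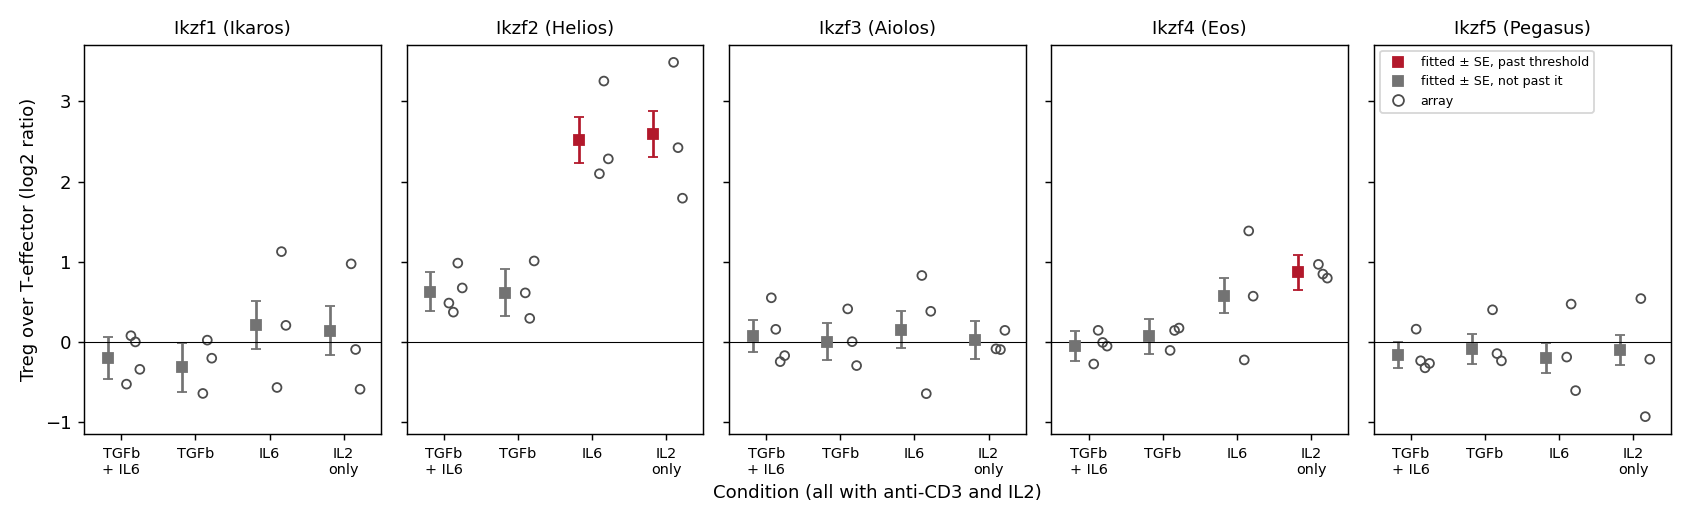
Log2 ratio of Treg over T-effector for the 5 members by condition, at the probe tested, with the fitted value ± SE (squares, red where limma's adjusted p is under 0.05) and single arrays (open circles). Ikzf2 with IL6 and with IL2 alone and Ikzf4 with IL2 alone are the 3 red squares.

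Ikaros, the founding member, did not pass the threshold in any of 16 comparisons, with 1 probe, A_52_P618569, whose coordinates span chr11:11710324-11713283 on the plus strand. The lowest adjusted p of limma's fits was 0.262, for Treg with TGFb and IL6 minus IL6 (-0.67 ± 0.34). The Treg log2 signals of Ikzf1 were 10.34, 10.23, 10.49 and 10.17 with TGFb and IL6, 10.28, 10.13 and 10.35 with TGFb, 10.35, 11.75 and 10.89 with IL6, and 11.72, 10.56 and 10.03 with IL2 alone. Both values above 11 came from slide A, and the rest ran from 10.03 to 10.89. The T-effector log2 signals ran from 10.10 to 10.92 and overlapped between all conditions. The fitted ratio was -0.20 ± 0.26 with TGFb and IL6, -0.32 ± 0.30 with TGFb, 0.21 ± 0.30 with IL6 and 0.14 ± 0.30 with IL2 alone, with 95% intervals that reached from -1.02 to 0.91 over the 4 conditions. The genes most like Ikzf1 were Zfp82, Eif1b and Eps15 (r = 0.873, 0.866 and 0.861).

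Aiolos, which acts in B cells and in differentiating helper T cells, was measured by 3 probes on the minus strand of chromosome 11: A_52_P18746 at chr11:98593331-98593390, A_52_P682315 at chr11:98622826-98622884 and the dim A_51_P222252 at chr11:98576444-98576503. None of its 16 comparisons passed the threshold at A_52_P18746, where the lowest adjusted p of limma's fits was 0.333. Its Treg log2 signals were 10.91, 10.94, 10.53 and 10.64 with TGFb and IL6, 10.59, 10.71 and 10.30 with TGFb, 11.16, 10.22 and 11.28 with IL6, and 10.12, 9.98 and 10.33 with IL2 alone. The array with IL6 on slide A, at 10.22, lay within the range of IL2 alone, and the other 2 lay above it. In Treg channels Ikzf3 with IL6 minus IL2 alone was 0.71 ± 0.26 (limma adjusted p = 0.333), and without IL6 array 2, the one on slide A, it was 1.05 (limma adjusted p = 0.00306). The T-effector log2 signals of Ikzf3 ran from 10.08 to 10.90. The genes most like it were Csrnp1, Itpk1 and Cemip2 (r = 0.788, 0.778 and 0.75).

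The Ikzf3 ratio lay within 0.16 of 0 in all 4 fits, from 0.00 ± 0.23 with TGFb to 0.15 ± 0.23 with IL6, and turned to -0.89 with IL2 alone and -0.87 with IL6 under median centring in place of loess (limma adjusted p = 0.0229 and 0.027), where the median of all genes was itself -0.30 and -0.32. At A_52_P682315 it ran from -0.05 ± 0.33 with IL2 alone to 0.26 ± 0.33 with TGFb, and at A_51_P222252 from -0.05 ± 0.09 with TGFb to 0.10 ± 0.08 with TGFb and IL6. The probe of the Ensembl transcript ENSMUST00000018312, described as aiolos, A_51_P222261 at chr11:98576153-98576212, was higher in Treg with TGFb (0.98 ± 0.25, limma adjusted p = 0.0443), where 5.4% of all probes passed. Its log2 ratios were 1.54, 0.82 and 0.56 on these 3 arrays, and its ratio in the other conditions was 0.50 ± 0.21 with TGFb and IL6, where 5.74% of probes passed, -0.12 ± 0.25 with IL6 and 0.14 ± 0.25 with IL2 alone. The probes at the Aiolos gene thus disagree on TGFb.

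Pegasus, at A_52_P582261 (chr7:127745110-127745169, minus strand), did not pass the threshold in any of 16 comparisons (lowest limma adjusted p = 0.564). Its Treg log2 signals ran from 7.15 to 7.68 with TGFb and IL6, 7.20 to 7.58 with TGFb, 6.75 to 8.14 with IL6 and 6.58 to 8.19 with IL2 alone, and both highest values came from slide A. The T-effector log2 signals ran from 6.80 to 7.94. The fitted Ikzf5 ratios were -0.17 ± 0.16, -0.09 ± 0.19, -0.21 ± 0.19 and -0.11 ± 0.19 in the same order of conditions. Under median centring the Ikzf5 ratio passed the threshold at -0.62 with IL6 and -0.60 with IL2 alone. The median of all genes was itself -0.32 and -0.30 there, and 8525 and 8480 of 19902 genes passed as lower. The most like genes were TC1419321, Rpe and AK078294 (r = 0.926, 0.923 and 0.923). Among the members, Ikzf4 and Ikzf5 had signals that ran opposite over the 26 channels (r = -0.663), and Ikzf1 and Ikzf2 had r = 0.426. Like Ikzf4, Ikzf5 moved with the slide. Its Treg log2 signals ran from 6.58 to 7.39 on slides D and E, 7.53 to 7.68 on slides B and C, and 8.14 to 8.19 on slide A. The part of the slide in these correlations was not tested.

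The partners were read on a list of 18 co-repressor genes of NuRD, Sin3 and CtBP with Smarca4, all 18 measured. Of these, 2 were higher in Treg with TGFb and IL6, 4 with TGFb, 1 with IL6 and 3 with IL2 alone, and 0 were lower. Of all genes, 3.5%, 4.14%, 3.77% and 7.42% were higher and 2.34%, 1.83%, 2.1% and 3.56% lower in these conditions. The list's median log2 ratio was 0.10, 0.18, -0.06 and -0.10, beside -0.01, -0.01, 0.01 and 0.02 over all genes. The largest change was in Chd3, the Mi-2 alpha helicase of NuRD, whose ratio was 1.51 ± 0.12 with IL6 (limma adjusted p = 6.67e-05), 1.19 ± 0.12 with IL2 alone (limma adjusted p = 0.000339) and 0.75 ± 0.12 with TGFb (limma adjusted p = 0.00481). The Chd3 ratio was lower with TGFb and IL6 than with IL6 (-1.46 ± 0.16, limma adjusted p = 0.00205), and its T-effector signal was higher there (1.72 ± 0.16, limma adjusted p = 1.55e-07). Smarca4, the BRG1 ATPase, had ratios of 0.66 ± 0.10 with TGFb and 0.50 ± 0.10 with IL2 alone (limma adjusted p = 0.00295 and 0.0114). Mta3, a NuRD subunit, rose by 0.68 ± 0.12 in Treg and by 0.42 ± 0.12 in T-effector channels with TGFb and IL6 against IL6 (limma adjusted p = 0.000597 and 0.0292). Ctbp2, a co-repressor, fell by 0.69 ± 0.19 in Treg and fell by 0.74 ± 0.19 in T-effector channels with TGFb against IL2 alone (limma adjusted p = 0.028 and 0.0273).

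The list of genes known as bound by Ikaros family proteins or tied to Helios in Treg cells held 27 genes, of which 23 were tested. Treg was higher for 6 with TGFb and IL6, 5 with TGFb, 6 with IL6 and 10 with IL2 alone, and lower for 3, 2, 0 and 1. Of all genes, 3.5%, 4.14%, 3.77% and 7.42% were higher and 2.34%, 1.83%, 2.1% and 3.56% lower. The list's medians were 0.27, 0.10, 0.11 and 0.39 in these comparisons, beside -0.01, -0.01, 0.01 and 0.02 over all genes. The list shares Foxp3, Il2ra, Ctla4, Gpr83 and Nrp1 with the Treg markers above, which are known to be high in Treg cells. These were all 5 of the genes higher with TGFb, and all but Dntt of those higher with TGFb and IL6. Their part in the counts thus says nothing particular to the Ikaros family. The ratio was lower for 6 of the 23 with TGFb than with IL2 alone and for 5 with TGFb and IL6 than with IL6, and higher for 0 in both. Over all genes 3.52% and 2.49% were lower, and 2.36% and 1.51% higher. The Treg markers Gpr83 and Ctla4 were among the lower genes in both comparisons. The list was chosen with earlier results of these data known, so these counts are no independent test of the Ikaros family. Itgb8 had the largest of the differences in ratio, -2.45 ± 0.39 and -1.79 ± 0.35 (limma adjusted p = 0.00674 and 0.0251). Il7r, the IL7 receptor chain, followed with -1.25 ± 0.17 and -1.26 ± 0.16 (limma adjusted p = 0.00342 and 0.00308). Its Treg signal fell by 0.89 ± 0.17 in the first comparison, and its T-effector signal rose by 1.36 ± 0.16 in the second. Gpr83, a receptor enriched in Treg cells, had -0.98 ± 0.18 and -0.81 ± 0.17 (limma adjusted p = 0.0126 and 0.0281). The T-effector signal of Gpr83 rose in both comparisons, by 1.50 ± 0.19 and 1.37 ± 0.18. In the second its Treg signal rose as well, by 0.56 ± 0.18 (limma adjusted p = 0.0468). The Il2 ratio, of the T cell growth factor, was lower with TGFb than with IL2 alone (-0.91 ± 0.12, limma adjusted p = 0.00342).

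Markers of other cells also differed between the samples. Of 13 tested B cell markers, 1 rose and 4 fell in Treg with TGFb against IL2 alone, and 0 rose and 8 fell in T-effector channels. Of all genes, 3.66% rose and 4.09% fell in Treg, and 1.87% rose and 2.45% fell in T-effector channels. Ighm, the mu heavy chain, was the marker that rose (1.18 ± 0.13), and Blnk, a B cell adaptor, fell by 2.34 ± 0.41 in Treg and fell by 3.27 ± 0.41 in T-effector channels. The summed B cell level, as log2, ran from 12.36 to 12.50 in Treg with TGFb and IL6, 13.22 to 13.36 with TGFb, 12.13 to 12.33 with IL6 and 12.44 to 12.85 with IL2 alone, and in T-effector samples from 10.88 to 11.61, 11.54 to 11.92, 11.36 to 11.43 and 12.67 to 12.80. Such a sum weighs the brightest markers most. The mean log2 signal of the 13 markers ran the other way in Treg, at 6.96 to 7.12 with TGFb against 7.25 to 7.75 with IL2 alone. In T-effector samples this mean was also lower with TGFb, at 6.80 to 7.15 against 7.80 to 7.84. Of the B cell markers, Ebf1 did not pass the filter. Of 10 markers of CD8 T and NK cells, 3 rose and 0 fell in Treg with TGFb against IL2 alone, with summed log2 levels of 13.28 to 13.61 with TGFb, against 12.30 to 12.86 with IL2 alone. Of 13 myeloid and dendritic markers 9 were tested, and Lyz2, Itgam, Siglech and S100a8 did not pass the filter. The part of these cells in the Ikaros family values was not tested.

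The authors' deposited table gives 1 value per probe and condition. Its values correlated at 0.91 to 0.94 with the mean of Agilent's log ratios turned to Treg over T-effector, with slopes of 0.91 to 1.14 per log2 unit, across 28751 to 28866 probes that are not independent. Against the loess-normalised ratios used in this report, the correlations were 0.75 to 0.80 and the slopes 1.47 to 1.81. The ratios given here thus tend to be smaller than the deposited values. For Ikzf2, the authors' deposited table lists 1.31 with TGFb and IL6, 1.31 with TGFb, 3.67 with IL6 and 3.54 with IL2 alone at A_52_P268911. For A730095J18Rik at A_52_P413515, the authors' deposited table lists 0.92, 1.31, 3.79 and 3.90. For Ikzf4 at A_51_P445117, the authors' deposited table lists -0.12, 0.06, 1.01 and 0.90, and for Ikzf1 it lists -0.19, -0.31, 0.46 and 0.30.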

How the data were processed

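The files were 13 scanner tables of 2-colour arrays, grouped by the 4 conditions of the labels, and a table of 1 value per probe and condition. Per the file headers, Agilent Feature Extraction 9.5.1.1 gave the deposited mean and background intensity of each spot in both channels, its processed intensity and its log10 ratio of red over green. The authors' deposited table holds log2 values whose direction, Treg over T-effector, and scale were set by comparison with Agilent's ratios, and its centring is unknown (column medians -0.0544 to -0.016 for the conditions with TGFb, -0.0831 to -0.0425 for the others).

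Each array held 45018 spots, 1639 of them controls. The intensities were background corrected by normexp (offset 50), normalised within arrays by loess (span 0.3) and, for single channels, between arrays by Aquantile, in limma 3.58.1 under R 4.3.3. Ratios were fitted with a gene-specific dye term (8 residual degrees of freedom), and channels with an intraspot correlation of 0.45. Probes were kept if 3 or more of 26 channels were well above background and if missing on at most 3 arrays, and p-values were adjusted by Benjamini-Hochberg over 19902 genes (19767 in the channel fit) with a threshold of 0.05. The ± values of fits are standard errors. A fold given as "at least" sets the bright group's mean against, on each array, the higher of the dim probe's own signal and the lowest signal well above background. The limits of these measures are set by the number of arrays.

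The members and lists were chosen with earlier results of these data known. Named were the 5 members, the 5 genes most like Ikzf2 and the 3 most like each other member, and up to 4 genes of the co-repressor list by size of change. The genes of the second list, named by size of the difference in ratio, and Ighm and Blnk were chosen after their values were seen. Probe names came from RefSeq by accession (22951 probes) or symbol or synonym (6659 and 3109), and 8455 kept the file's name. Same-numbered arrays (1, 2 and 3) with TGFb and IL6 and with TGFb are matched in slide and in dye, and their paired deviations correlated at 0.76, 0.73 and 0.54. The fits were tested on simulated data. Matplotlib 3.10.9 drew the figures.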

Additional observations from a re-analysis of the deposited data

Results flagged for a closer look

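The Treg over T-effector ratio differed between conditions for 2 gene names at the Helios gene, by the test of the difference itself. For Ikzf2 it was -1.97 for TGFb against IL2 alone and -1.89 for TGFb with IL6 against IL6. For A730095J18Rik, at its own probe, the same differences were -2.42 and -2.70 (limma adjusted p = 0.00108 and 0.000435).

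With TGFb and IL6, single arrays stood apart from the other 3 of the group, by a gap over range above the 95% critical value of Dixon, which chance passes in about 1 of 20 groups. At the aiolos probe A_51_P222261 the log2 ratio of array 1 was 0.85 against 0.38 on the others (gap over range 0.995). At Ikzf3 probe A_52_P18746 the T-effector log2 signal of array 1 was 10.36 against 10.78 to 10.82 (0.914). At Ikzf4 probe A_51_P353247 the log2 ratio of array 4 was 0.03 against -0.21 to -0.17 (0.869).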

How the results depend on the processing

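For Ikzf2, the ratio with IL6 (1.95 to 3.45), the ratio with IL2 alone (1.89 to 3.42) and the Treg difference of TGFb with IL6 against IL6 (-2.56 to -1.66) passed the threshold at the bright probe under all 24 alternatives run on it. At probe A_51_P413398 these were smaller by over 1.5 times but passed, at 1.08, 0.99 and -1.06. No Ikzf1 result passed under any alternative. Without slide E the IL6 condition rests on 1 array, assumed to vary like the others. The Ikzf2 ratio passed with Agilent's processed signals at 1.52 with TGFb and IL6 and 1.16 with TGFb, where 3620 and 3330 of 19902 genes passed. The difference of the Ikzf2 ratio for TGFb with IL6 against IL6 lost the threshold when all spots entered the background model (-1.96) and without slide B (-1.76), and ran from -2.14 to -1.56 with single arrays left out. That for TGFb against IL2 alone lost it with the same model (-1.72), at probe A_51_P413398 (-0.80, with the T-effector channel above background on 0 of 3 TGFb arrays) and without slide B (-1.81), and ran from -2.34 to -1.32. The Ikzf2 Treg difference of TGFb against IL2 alone lost it at probe A_51_P413398 (-0.60), without slide B (-1.27) and without slide E (-1.39), and ran from -1.74 to -0.88. The Ikzf4 ratio with IL2 alone lost it with that background model (0.65), under median centring (0.32), at probe A_51_P353247 (0.39) and without slide B (0.86), turned to -0.064 at probe A_52_P291857, and ran from 0.79 to 0.91. The Ikzf3 ratio turned under median centring to -0.87 with IL6 and -0.89 with IL2 alone, and without slide E, on that 1 array, to -0.73 with IL6. Leaving out a slide or array also leaves fewer samples, and otherwise the cause was not tested. With the replicate block over the 3 paired arrays of TGFb with IL6 and TGFb, the Ikzf2 difference passed at -0.39 in Treg and -0.36 in T-effector channels. The genes passing there ran from 458 to 2361 and from 594 to 3119 over the alternative settings, this block among them.

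The number of genes past the threshold moved with the setting, from 156 to 3620 with TGFb and IL6, 201 to 3330 with TGFb, 168 to 9016 with IL6 and 405 to 9705 with IL2 alone. With IL2 alone 1476 genes were higher and 709 lower in Treg, against 1225 and 8480 under median centring. With IL6 these were 751 and 417, against 491 and 8525. Of 1767 values over 73 results that did not pass the threshold, 199 turned sign and 19 passed it.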
